A study of Mus musculus with 16 samples.

Results

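The miR-30 family of miRNAs was examined in sciatic nerves of mice that lack Dicer in Schwann cells and in control nerves. The members were all array entries under the names of the 5 major strands, mmu-miR-30a, mmu-miR-30b, mmu-miR-30c, mmu-miR-30d and mmu-miR-30e, and under those of 3 passenger strands, mmu-miR-30a*, mmu-miR-30c-2* and mmu-miR-30e*. The species prefix is left out below. These 8 names were found among the 650 miRNA names of the array, and they are carried by 17 of its 1857 probes. All 17 probes belonged to miRNAs detected often enough to be tested. Nerves came from Dicer1 fl/fl Dhh-Cre pos mice, called mutants here, and from Dicer1 wt/fl Dhh-Cre pos mice, called controls. Nerves were taken 4 days after birth (P4) or before birth, at day 17 of embryonic development (E17). All animals were of the strain Dicer1tm1Bdh/J. Each of the 4 groups held 4 mice with 1 single-color Agilent array per mouse, which gave 16 arrays. The controls also carried the Cre transgene and 1 floxed Dicer1 allele, so no group was free of either. The Dhh promoter drives Cre in the Schwann cell lineage from the precursor stage on, whereas the RNA came from the whole nerve with its other cell types. In whole nerve, fewer cells of a type and less RNA per cell cannot be told apart.

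A miRNA hairpin is cut by Dicer into a short duplex, 1 strand of which is usually retained in the silencing complex as the major strand while the other, the passenger or star strand, is mostly lost. Both strands need Dicer to be made. The seed near the 5′ end of a miRNA selects most of its target mRNAs, and the miR-30 family is a broadly expressed group of miRNAs with a common seed in their major strands. Described targets of the family include Becn1, a gene of autophagy, and Snai1, a transcription factor of epithelial to mesenchymal transition.

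The mature sequences show which members share a seed and how little some of them differ. RefSeq (GRCm38.p6) gave mature sequences for 6 of the 8 member names, with none for miR-30b and miR-30d. They are written 5′ to 3′ with the seed, bases 2 to 8, in capitals. The star strand of Mir30c-1 is added because Mir30c-1 and Mir30c-2 give the same major strand.
miR-30a: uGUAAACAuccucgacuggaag
miR-30c: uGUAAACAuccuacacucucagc
miR-30e: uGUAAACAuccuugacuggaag
miR-30a*: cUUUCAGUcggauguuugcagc
miR-30e*: cUUUCAGUcggauguuuacagc
miR-30c-2*: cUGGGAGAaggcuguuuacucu
miR-30c-1*: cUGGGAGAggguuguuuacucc
The 3 major strands printed here have the seed GUAAACA, and they are identical over their first 12 bases. Counted from the 5′ end, miR-30a and miR-30e differ by the single substitution C13U, and miR-30a* and miR-30e* by the single substitution G18A. The star strands have other seeds, UUUCAGU for miR-30a* and miR-30e* and UGGGAGA for both star strands of miR-30c. Of the 1679 mature mouse names in the same table, 4 carry the seed GUAAACA, the fourth being miR-384-5p, which was detected on 0 of the 16 arrays. miR-30b and miR-30d have no sequence in that table, so this count could not include them.

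The hairpins lie in neighboring pairs. On GRCm38.p6 the miR-30a strand lies at chr1:23272274-23272295 and its star strand at chr1:23272315-23272336, both on the plus strand, within the hairpin Mir30a. The hairpin Mir30c-2 follows 19361 bases further on, with miR-30c at chr1:23291714-23291736 and miR-30c-2* at chr1:23291754-23291775. The other copy of miR-30c lies in Mir30c-1 at chr4:120769584-120769606 on the minus strand, with its star strand at chr4:120769546-120769567. Mir30e lies 2983 bases from Mir30c-1, with miR-30e at chr4:120772660-120772681 and miR-30e* at chr4:120772618-120772639 on the minus strand. Mir30c-1 and Mir30e both lie within the span of Nfyc, which encodes a subunit of the CCAAT-binding factor NF-Y, and the table lists a further hairpin gene, Mir30f, over the same interval as Mir30e. Mir30b and Mir30d are neighbors as well, with 0 genes between them. The array measures the 2 copies of miR-30c as 1 name, and miR-30c-2* and miR-30c-1* are the strands that belong to 1 copy each.

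Between 197 and 260 miRNAs were detected per array, no spot was saturated, and arrays of a group correlated at 0.962 to 0.998. Each age had its own slide with 8 arrays, mutants and controls together, so that differences between ages and between slides cannot be told apart. Genotypes were compared within a slide. Mutant replicate 3 at E17 had a high median spot signal, 95.5 against 49.5 to 74 on the other 15 arrays. Summed background-subtracted signal of all mouse miRNAs was 122656 to 153912 in P4 controls and 56470 to 83531 in P4 mutants. The normalization sets such a loss aside, and the log2 differences below are therefore relative to the other miRNAs. As a check of the tissue, the Schwann cell and myelinating glia miRNAs miR-338-3p, miR-338-5p and miR-138 were all lower in P4 mutants, with a summed signal of 2940 to 3907 in controls and 122 to 261 in mutants. The fourth of that list, miR-219, was detected on 0 arrays. The study had already reported miR-338-3p and miR-138 as lower in P4 mutants from these same arrays, so this check is not independent.

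At P4 the passenger strand miR-30a* and the major strands miR-30a, miR-30c and miR-30b were downregulated in mutants. These are 4 of the 8 members, whereas 30 of all 281 miRNAs tested were called lower, which is 10.7%. The study had already listed these same 4 members as lower in P4 mutants from these same arrays, so the calls are not independent of it. It also measured miR-30a as lower in P4 mutants by real time PCR. Probes were called by limma over all 16 arrays where the p adjusted by Benjamini-Hochberg over 681 probes did not exceed 0.05 and the log2 difference reached a limit of 0.5 in size. No member was called higher, whereas 10.3% of the miRNAs were. The differences of all 17 probes were negative, from -1.27 to -0.029, while the median over all probes tested was 0.023. At the level of probes, 7 of the 17 were called lower, against 54 of 681, or 7.93%. The brightest probe of each miRNA is given below unless stated otherwise.

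miR-30a had the largest fall among the major strands. Its log2 signals were 9.96, 9.75, 9.67 and 10.09 in the P4 controls and 8.99, 8.70, 8.46 and 8.71 in the P4 mutants, so that the highest mutant lay below the lowest control. The log2 difference was -1.15 ± 0.114 (SE, n = 4 per group, limma adjusted p = 2.07e-06), a 2.22-fold lower signal. The other 2 probes of miR-30a gave -1.27 and -0.90 and were called as well.

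miR-30c, the strand shared by 2 hairpins, was at 8.98, 8.82, 8.78 and 8.94 in P4 controls and at 8.45, 8.18, 7.99 and 7.96 in P4 mutants. The groups did not overlap, although mutant replicate 1 lay above the other mutants. The log2 difference was -0.74 ± 0.096 (limma adjusted p = 2.92e-05). Its dimmer probe gave -0.42 (limma adjusted p = 2.81e-06), under the limit in size.

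miR-30b was at 7.78, 7.81, 7.64 and 7.82 in P4 controls and at 7.27, 7.26, 7.10 and 7.21 in P4 mutants. The ranges were well apart, and the log2 difference was -0.55 ± 0.0629 (limma adjusted p = 7.70e-06). The call rests on this probe, since the dimmer probe of miR-30b gave -0.20 and was not well above background in any mutant, which bounds the change there at at least 1.05-fold. The call was lost with the mean over both probes (-0.38) and with normexp background correction (-0.40).

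miR-30d, the neighbor of miR-30b, was at 7.86, 7.73, 7.76 and 7.74 in P4 controls and at 7.53, 7.33, 7.30 and 7.10 in P4 mutants. No mutant reached the lowest control, and the adjusted p was 9.93e-05 by limma, but the log2 difference of -0.46 ± 0.0687 stayed under the limit. Its other probe gave -0.46 as well. miR-30d came past the limit under 6 alternatives, among them the deposited intensities (-0.54), cyclic loess (-0.77) and array weights (-0.53), and also without mutant replicate 1 (-0.53).

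miR-30e was the major strand whose groups overlapped. Its log2 signals were 7.43, 7.30, 7.22 and 7.66 in P4 controls and 7.46, 7.40, 7.28 and 7.35 in P4 mutants. Control replicate 4 was the highest array and control replicate 3 the lowest, with all mutants in between. The log2 difference was -0.029 (95% interval -0.21 to 0.15, limma adjusted p = 0.807), an interval that leaves out the size of the call limit but not a smaller change, and without control replicate 4 it was 0.055. Without normalization between arrays miR-30e was called lower, at -0.60. The other probe of miR-30e gave -0.076 (95% interval -0.17 to 0.019).

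Of the passenger strands, miR-30a* fell with its major strand. It was at 7.19, 7.02, 7.13 and 7.29 in P4 controls and at 6.33, 6.40, 6.28 and 6.31 in P4 mutants, and the 2 groups were apart by more than either spread. The log2 difference was -0.83 ± 0.0724 (limma adjusted p = 5.84e-07). Its dimmer probe, at -0.54, was called too, where the mutants were not well above background and the fall was at least 1.26-fold.

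miR-30e* was at 6.55, 6.51, 6.61 and 6.62 in P4 controls and at 6.30, 6.34, 6.29 and 6.23 in P4 mutants. All mutants lay below all controls, unlike in its major strand, and the log2 difference was -0.29 ± 0.0420 (limma adjusted p = 8.55e-05), under the limit in size. Over the 16 arrays miR-30e* correlated with miR-30a* at r = 0.949 and with miR-30e at r = 0.336. After subtraction of the group means these values were 0.846 and 0.050. miR-30e* and miR-30a* differ by 1 base, and whether the miR-30e* probes also read miR-30a* was not tested. miR-30c-2* was at 6.35, 6.32, 6.40 and 6.41 in P4 controls and at 6.12, 6.09, 6.03 and 6.15 in P4 mutants. It was well above background on all 4 control arrays and on 0 mutant arrays, which bounds the difference at at least 1.06-fold (log2 difference -0.27, limma adjusted p = 2.79e-05). Across the brightest probes, 7 of the 8 members thus had mutants wholly below controls, whereas 24.2% of all miRNAs did.

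**Figure D1:**
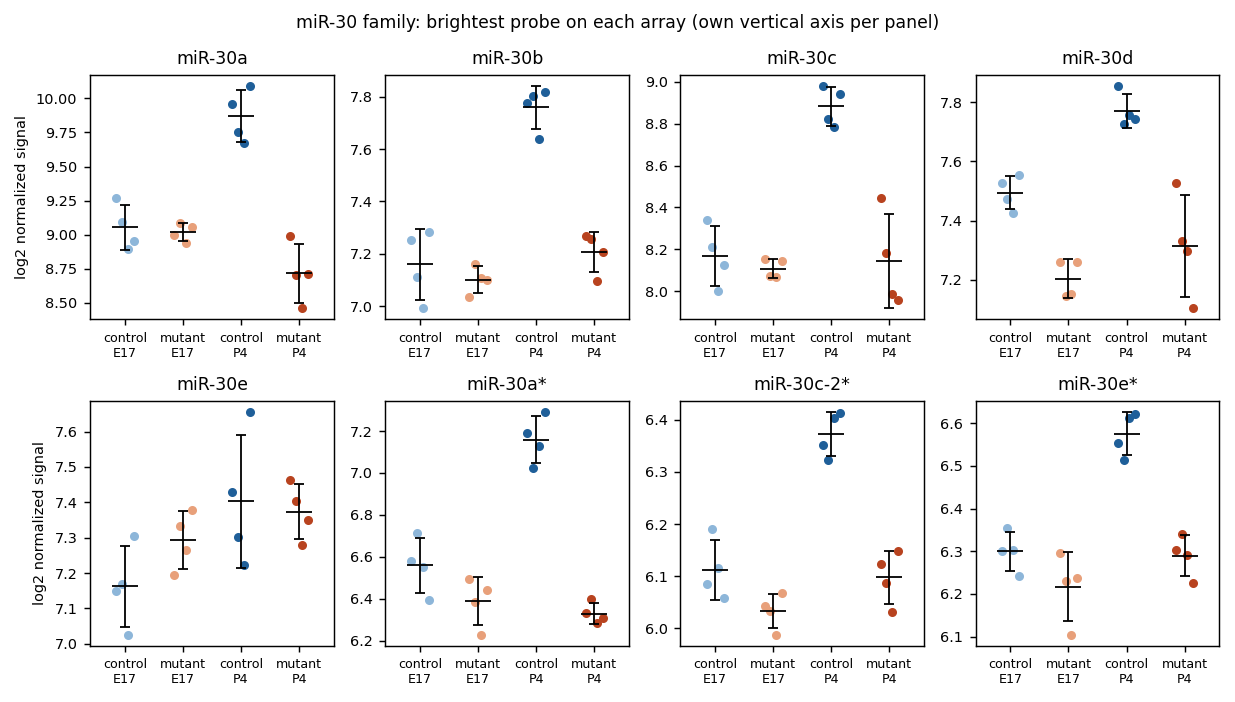
Log2 normalized signal of the brightest probe of each miR-30 member (vertical axis, own range per panel) on the 4 arrays of each group, with points for arrays and bars for mean ± SD. Control arrays at P4 stand above all other arrays for every member but miR-30e, whose groups overlap.

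The normalized signal is not background-subtracted, which compresses log2 differences of dim probes. The background-subtracted gene signal of the scanner software shows the same members on a scale with a true zero. For miR-30a this signal was 1183 to 1267 in P4 controls and 185 to 253 in P4 mutants, so that the mutant mean was 18.1% of the control mean. The corresponding percentage was 29.5% for miR-30c, 31.6% for miR-30b, 33.7% for miR-30d and 56.3% for miR-30e. Among the passenger strands it was 15.4% for miR-30a* and 32.0% for miR-30e*, while miR-30c-2* was not well above background in P4 mutants and is given no percentage. The summed signal of all mouse miRNAs in mutants was 51.6% of that in controls, so on this scale miR-30e stood near the total and the other 6 members given here below it. These percentages come from signals that were not normalized between arrays and were not tested.

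**Figure D2:**
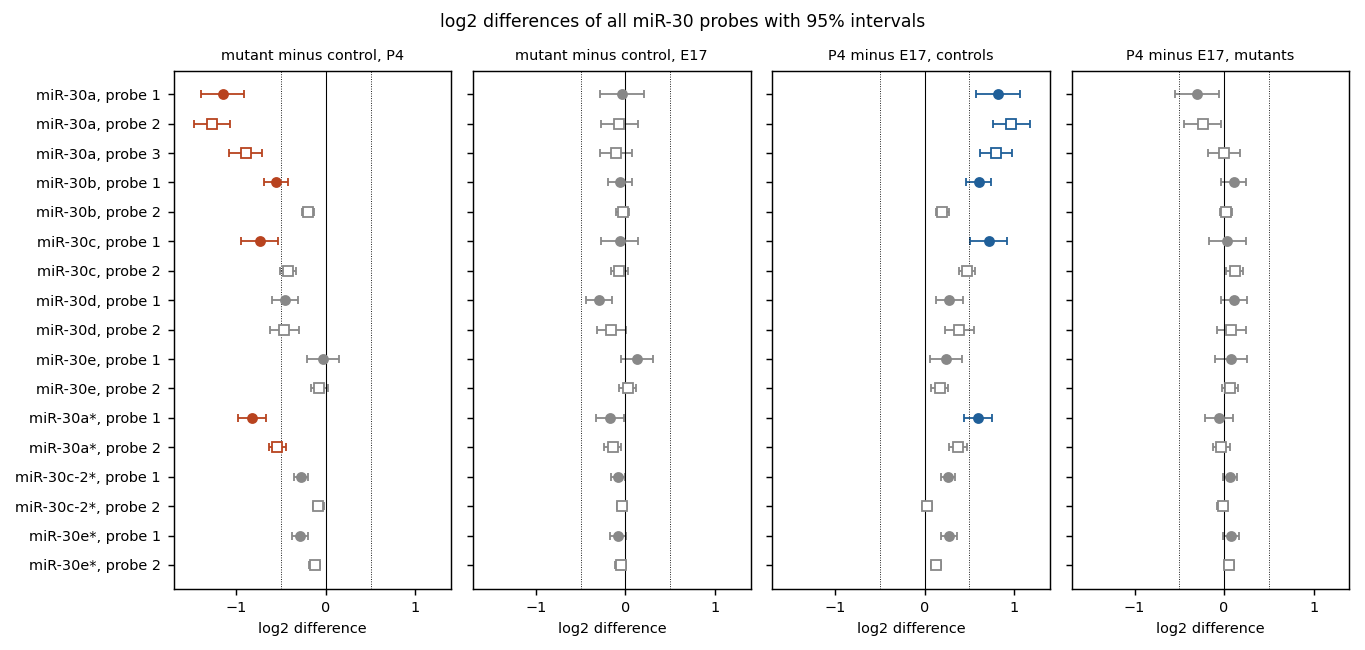
Log2 differences of all 17 miR-30 probes in 4 comparisons (horizontal axis), each with its 95% interval from limma, with filled circles for the brightest probe of a miRNA and open squares for its other probes. Red marks probes called lower, blue probes called higher and gray probes not called, and dotted lines mark the limit of 0.5. In P4 mutants 7 probes were called lower and in P4 controls against E17 controls 6 were called higher, with 0 calls in the remaining 2 comparisons.

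At E17 no member was called in mutants against controls by limma, with 3 of the 8 brightest probes at an unadjusted p under 0.05 and none of these past the limit in size. Over all miRNAs, 7 of 281, or 2.49%, were called lower and 10, or 3.56%, higher. Differences of the 17 probes ran from -0.29 to 0.13. The member closest to a call was miR-30d, at 7.53, 7.47, 7.43 and 7.55 in controls and 7.26, 7.15, 7.15 and 7.26 in mutants. All 4 mutants lay below all controls, as for 13.9% of all miRNAs, and the difference of -0.29 ± 0.0687 had a limma adjusted p of 0.0192 but was under the limit, while the other probe of miR-30d gave -0.16 (limma adjusted p = 0.203). miR-30a showed a difference of -0.033 (95% interval -0.28 to 0.21), miR-30b of -0.058 (-0.19 to 0.077), miR-30c of -0.060 (-0.27 to 0.15) and miR-30e of 0.13 (-0.048 to 0.31). The interval of each of these 4 strands leaves out a change of the size of the limit.

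Whether the effect of genotype differed between the ages was tested as the difference of the differences. It was called for 3 of the 8 members, against 19 of 281 miRNAs, or 6.76%, called lower in this test. The P4 difference was lower than that at E17 by 1.12 for miR-30a, with a log2 value of -1.12 ± 0.161 (limma adjusted p = 0.000257). For miR-30c it was -0.68 ± 0.136 (limma adjusted p = 0.00348) and for miR-30a* -0.66 ± 0.102 (limma adjusted p = 0.000486). miR-30b, at -0.50 ± 0.0890 (limma adjusted p = 0.00146), fell just short of the limit in size and passed it with the deposited intensities, at -0.72, and when any 1 of 6 of the 16 arrays was left out, at -0.54 at the most. The value for miR-30a* was under the limit with normexp, at -0.47. For miR-30d the value was -0.17 (95% interval -0.38 to 0.04) and for miR-30e -0.16 (95% interval -0.41 to 0.09), so a difference between ages was not shown for these strands by their brightest probes. The other probe of miR-30d gave -0.31 (95% interval -0.54 to -0.076, limma adjusted p = 0.0734), and cyclic loess gave -0.58 for its brightest probe. miR-30e* (-0.20, limma adjusted p = 0.0348) and miR-30c-2* (-0.20, limma adjusted p = 0.0180) passed the limit on p but not that in size. Both read near the floor.

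With age, from E17 to P4, the controls gained miR-30a* and the major strands miR-30c, miR-30b and miR-30a, the same members that were called lower in P4 mutants. They are 4 of 8 members, and 6 of 17 probes, where 23 of 281 miRNAs, or 8.19%, and 5.43% of the probes were called higher. The study had already listed this rise for the same 4 members from these arrays. Both comparisons use the P4 control arrays, so a control array that reads high raises one and lowers the other. In controls miR-30a rose from 9.27, 9.09, 8.89 and 8.96 at E17 to the P4 values given above, a difference of 0.82 ± 0.114 (limma adjusted p = 6.34e-05). miR-30c rose by 0.71 ± 0.096 (limma adjusted p = 4.76e-05) from 8.34, 8.21, 8.0 and 8.12. miR-30b rose by 0.60 ± 0.0629 (limma adjusted p = 4.49e-06) from 7.25, 7.11, 6.99 and 7.28, and miR-30a* by 0.60 ± 0.0724 (limma adjusted p = 1.57e-05) from 6.58, 6.71, 6.55 and 6.39. For these 4 members every P4 control was above every E17 control. The calls of miR-30b and miR-30a* were lost with normexp, at 0.44 and 0.45, and over the mean of their probes, at 0.40 and 0.49, and that of miR-30a* also with scaling to a percentile, at 0.27.

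The remaining members showed smaller differences. miR-30d gave 0.28 ± 0.0687 (limma adjusted p = 0.00588), miR-30e 0.24 ± 0.0835 (limma adjusted p = 0.0335), miR-30e* 0.28 ± 0.0420 (limma adjusted p = 0.000144) and miR-30c-2* 0.26 ± 0.0355 (limma adjusted p = 5.32e-05), all under the limit. miR-30c-2* was well above background on none of the 4 E17 control arrays and on all 4 P4 control arrays, a difference of at least 1.05-fold. The E17 and P4 controls overlapped only for miR-30e among the 8 brightest probes, and 23.5% of all miRNAs had no overlap with higher P4 values. Mean background-subtracted gene signal of the 5 major strands at P4 was 4.53 times that at E17 in controls, and that of all mouse miRNAs 2.72 times.

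In mutants no member was called between E17 and P4 by limma, with 1 of the 8 brightest probes, that of miR-30a, at an unadjusted p under 0.05. Over all miRNAs, 9 of 281 miRNAs, or 3.20%, were called higher and 21, or 7.47%, lower. The value for miR-30a was -0.30 (95% interval -0.55 to -0.06, limma adjusted p = 0.0621), for miR-30c 0.035 (-0.17 to 0.24), for miR-30b 0.11 (-0.030 to 0.24) and for miR-30a* -0.058 (-0.21 to 0.097). For each of these 4 members the interval in mutants lies below that in controls. In mutants the corresponding ratios were 1.44 for the 5 major strands and 1.60 for all mouse miRNAs.

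Ordered by group means, the P4 controls had the highest level of each of the 8 members. For miR-30a the P4 mutants were lowest, whereas both E17 groups differed from each other by less than their spread. The same order held for miR-30a*. For miR-30d the E17 mutants were lowest with the P4 mutants next, and these groups overlapped. For miR-30e the E17 controls were lowest, and each neighbor in the order overlapped with the next.

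The family's share of all miRNA signal summarizes these levels. The 5 major strands held 1.19%, 1.08%, 0.941% and 1.13% of the summed mouse miRNA signal on the E17 control arrays and 0.936%, 1.03%, 1.05% and 1.09% on the E17 mutant arrays. In P4 controls they held 1.89%, 1.65%, 1.93% and 1.87%, and in P4 mutants 1.09%, 0.871%, 0.974% and 0.799%. The P4 controls were above all other arrays, and the mutants of both ages overlapped with the E17 controls. The 3 passenger strands held 0.141% ± 0.0153 (SD, n = 4) in P4 controls and 0.0532% ± 0.0073 in P4 mutants, against 0.0870% ± 0.0107 in E17 controls and 0.0604% ± 0.0096 in E17 mutants. At E17 the passenger share of the mutants, at most 0.0670%, was below that of the controls, at least 0.0758%, while the shares of the major strands overlapped. This passenger share rests on signals near the floor. In E17 mutants the brightest probe was well above background on 1 of 4 arrays for miR-30a* and on 0 for miR-30e* and miR-30c-2*. Shares were described without a test.

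**Figure D3:**
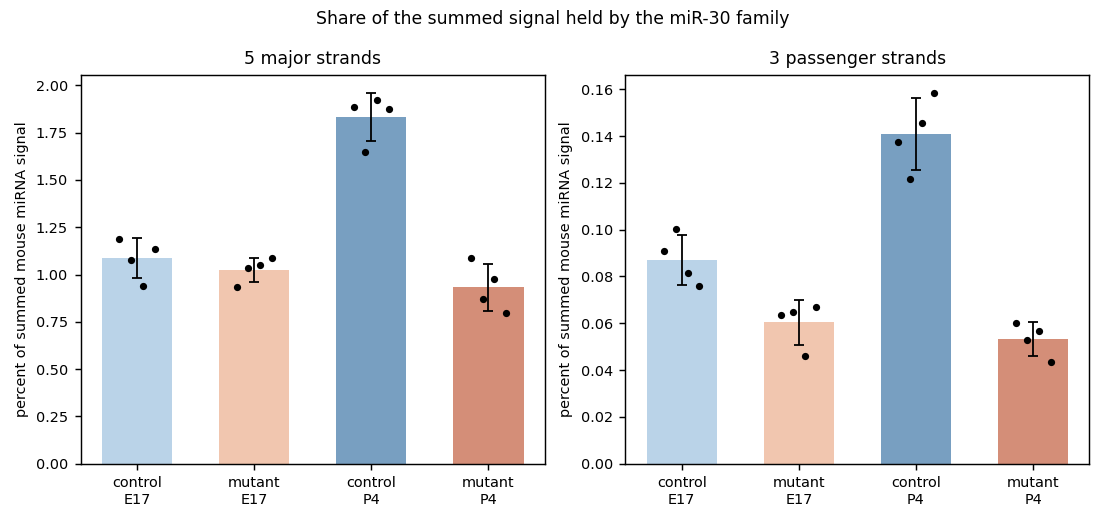
Percent of the summed background-subtracted mouse miRNA signal held by the 5 major strands (left) and the 3 passenger strands (right) of the miR-30 family, with bars for group means, error bars for SD and points for the 4 arrays of a group. Major strands reach 1.65% to 1.93% in P4 controls and at most 1.19% in any other group.

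Neighboring hairpins and the strands of a hairpin were compared within each array, since both readouts then share the RNA and the hybridization. For 6 pairs the log2 difference between the brightest probes was compared between groups in 4 comparisons. Such a difference says how unequally both probes moved and not which strand is more abundant. Of the 24 exact two-sided permutation tests, 8 gave p = 0.0286, the smallest that 4 against 4 arrays can give, and their adjusted value over the 24 tests was 0.0857.

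Of the 6 pairs, miR-30e and miR-30c moved most unequally on the normalized signal. The within-array difference of miR-30e minus miR-30c was -1.48 ± 0.130 (SD, n = 4) in P4 controls and -0.77 ± 0.158 in P4 mutants, a change of 0.71 with no overlap (exact permutation p = 0.0286). In controls it changed by -0.47 from E17 to P4, also with no overlap. Mir30e and Mir30c-1 are the 2983-base neighbors on chromosome 4, but the miR-30c signal can also come from the copy beside Mir30a. miR-30a minus miR-30c changed the other way, the difference being 0.99 ± 0.115 in P4 controls and 0.57 ± 0.124 in P4 mutants (change -0.41, exact permutation p = 0.0286). Both of these changes at P4 kept their sign and their p with background-subtracted spot signal that was not normalized, with median signal that was not normalized and over the mean of a miRNA's probes.

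miR-30b and miR-30d were not shown to move apart between genotypes at P4, where the within-array difference changed by -0.10 (exact permutation p = 0.400) and groups overlapped. At E17 their difference was -0.34 ± 0.0779 in controls and -0.10 ± 0.108 in mutants, with no overlap (exact permutation p = 0.0286). With the background-subtracted, unnormalized signal this change was 0.28 (exact permutation p = 0.0857).

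For the strands of a hairpin, the result depended on the signal used, and the second value given for each pair is from background-subtracted spot signal without normalization between arrays. miR-30a minus miR-30a* changed by -0.32 in P4 mutants (exact permutation p = 0.0571) and by 0.19 with that signal (exact permutation p = 0.0286). miR-30c minus miR-30c-2* changed by -0.46 (exact permutation p = 0.0286) and by 0.37 with that signal (exact permutation p = 0.171). The star probes read near the array's floor, and no order of loss between the strands of Mir30a or Mir30c-2 was obtained. miR-30e minus miR-30e* changed by 0.26 (exact permutation p = 0.0571) and by 0.80 with that signal (exact permutation p = 0.0286), but by -0.037 with unnormalized median signal.

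**Figure D4:**
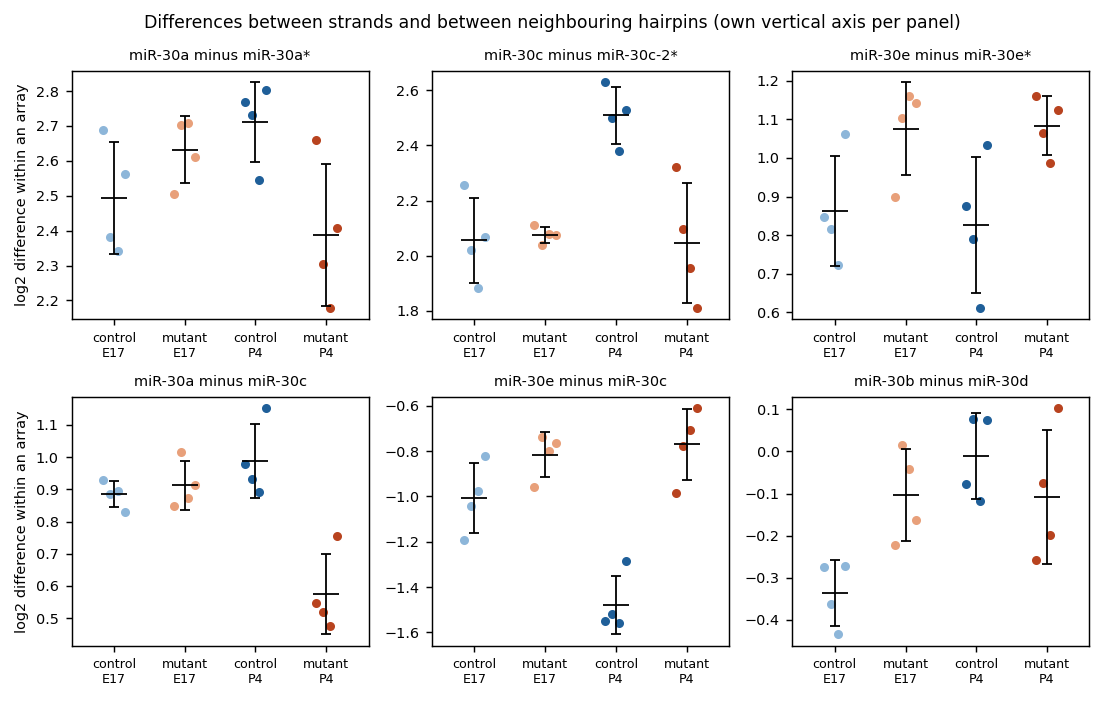
Log2 difference between the brightest probes of 2 strands on the same array (vertical axis, own range per panel), for the strands of a hairpin in the upper row and for neighboring hairpins in the lower row, with points for the 4 arrays of a group and bars for mean ± SD. P4 mutants lie apart from P4 controls for miR-30c minus miR-30c-2*, miR-30a minus miR-30c and miR-30e minus miR-30c.

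The star strands miR-30b* and miR-30c-1* lie outside the 8 members. miR-30b*, the passenger strand of the hairpin that gives miR-30b, was at 6.11, 6.12, 6.18 and 6.17 in P4 controls and at 6.65, 6.44, 6.75 and 6.64 in P4 mutants, every mutant being above every control. It was well above background on 0 of the 4 control arrays and on all 4 mutant arrays, so that it was at least 1.30-fold higher in mutants (log2 difference 0.47, limma adjusted p = 5.94e-06), under the limit in size. In mutants miR-30b* rose with age at least 1.16-fold (log2 difference 0.56, limma adjusted p = 8.52e-06), which was a call. Its 2 brighter probes showed this and the other 2 did not, with -0.031 and 0.0064 at P4 between the genotypes. miR-30c-1* was detected on 3 of 4 P4 control and 2 of 4 P4 mutant arrays, and its arrays overlapped in both genotype comparisons, with -0.16 at P4 (95% interval -0.39 to 0.070) and -0.082 at E17 (95% interval -0.31 to 0.15). With age in controls miR-30c-1* differed by 0.30 (limma adjusted p = 0.0366), under the limit in size and with overlapping groups, and its 3 other probes gave 0.16 to 0.20.

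The 5 major strands correlated with each other over the 16 arrays at r = 0.226 to 0.943 with a median of 0.817. The pair of miR-30b and miR-30c had the highest value and that of miR-30d and miR-30e the lowest. After subtraction of the group means, r was 0.279 to 0.831 with a median of 0.574. These arrays share slides by age and the normalization, and the values are given as a description. Of 266 other mouse miRNAs, the 5 whose profile was most like the mean of the 5 major strands were miR-24-1* (r = 0.949), miR-138* (r = 0.946), miR-146b (r = 0.945), miR-340-5p (r = 0.943) and miR-138 (r = 0.939). In P4 mutants these showed log2 differences of -0.40, -0.46, -2.12, -0.45 and -0.94. Their r fell to 0.346 to 0.540 within groups.

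Lists of miRNAs typical of other cells were looked at in the same comparisons. Over all miRNAs, 10.3% were called higher and 10.7% lower at P4, and 3.56% higher at E17. With age in controls 8.19% of the miRNAs were called higher, and 50 of 681 probes lower. For these lower calls only probes were counted, which is not the same measure as a share of miRNAs. In lists this short, 1 called miRNA is already above these shares. In P4 mutants 3 of the 4 tested miRNAs of the fibroblast and smooth muscle list were called higher, with a summed signal of 4139 to 5658 in controls and 4020 to 7293 in mutants, and miR-145 of this list was detected on 0 arrays. The erythroid list had 1 of 3 higher, the leukocyte list 1 of 3 and the endothelial list 1 of 2, while the skeletal muscle list had 0 of 4 called. The neuron list had 1 of 4 lower, with a summed signal of 168 to 189 in controls and 80.9 to 124 in mutants. Such sums were not normalized between arrays, and that of all mouse miRNAs in P4 mutants was 51.6% of that in controls. At E17, where 0 members were called, the fibroblast and smooth muscle list had 3 of 4 higher as well, and the erythroid and leukocyte lists 1 of 3 each. The Schwann cell list likewise had 0 of 3 called at E17, with a summed signal of 312 to 685 in controls and 290 to 395 in mutants. With age in controls, the Schwann cell list had 2 of 3 higher, the fibroblast and smooth muscle list 3 of 4 lower, the erythroid list 2 of 3 lower, and the skeletal muscle and neuron lists 1 of 4 lower each. The part of cell composition in the miR-30 differences was not tested.

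The differences of miR-30d, miR-30c, miR-30b, miR-30a and miR-30a* in P4 mutants stayed negative under all 7 signals and scalings tried. Scaling to a percentile of detected probes brought the median of all probes to 0.56 at P4, from 0.023, and under it miR-30e (0.061), miR-30e* (0.098) and miR-30c-2* (0.18) turned to positive values. Relative to the median of all probes, all 8 members were negative under each of the 7 signals and scalings, from -1.08 to -2.18 for miR-30a and from -0.035 to -0.50 for miR-30e. Of all probes called at P4, 54.5% were lower, which became 13.8% with the percentile scaling and 99.4% without normalization.

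**Figure D5:**
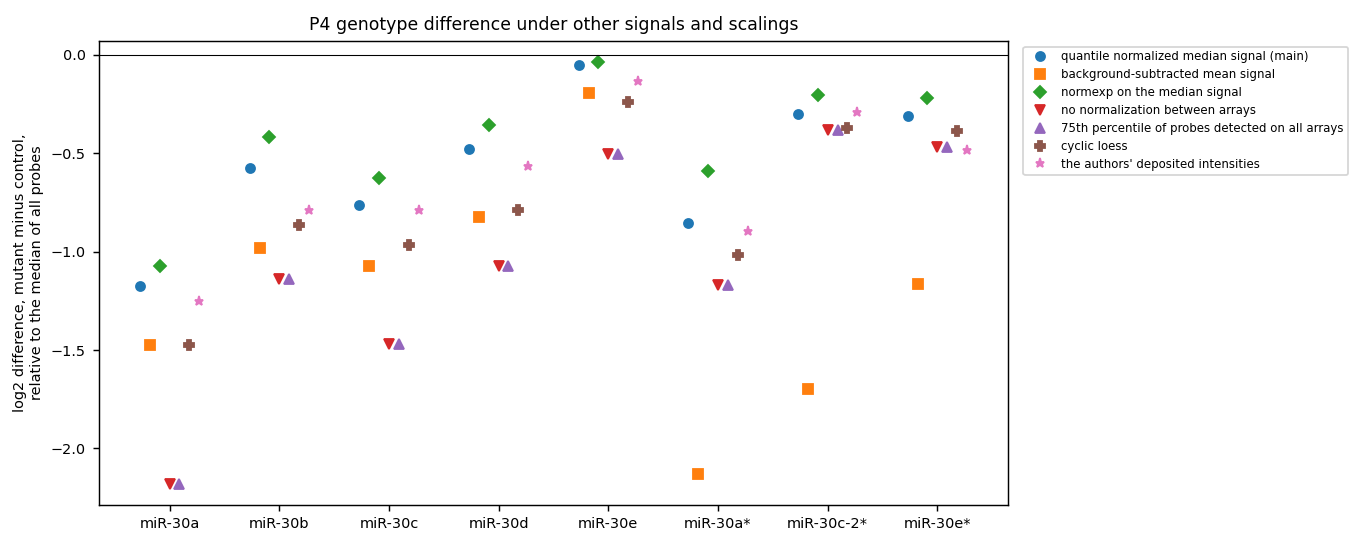
Log2 difference between P4 mutants and P4 controls of the brightest probe of each miR-30 member, minus the median of all 681 probes (vertical axis), under 7 choices of signal and scaling, each with its own marker. All values are below 0, with miR-30a at -1.08 or lower and miR-30e closest to 0 among the major strands.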

How the data were processed

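Sciatic nerve miRNA was measured on 16 single-color Agilent mouse miRNA arrays, with 4 mice in each group of genotype and age as the labels give them. The authors deposited the scanner output of Agilent Feature Extraction 10.5.1.1, with spot intensities before and after background subtraction that were not yet normalized. A second deposited table holds their quantile normalized intensities and served as an alternative.

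Log2 median spot signals were quantile normalized, as in the methods of the study, here over 13000 non-control spots, and then averaged per probe without outlier spots. Tested were the 681 probes of 281 miRNAs that a share of 0.5 or more of the arrays in any group detected. One limma 3.58.1 fit (R 4.3.3) covered all 16 arrays, in place of the methods' t-test. Calls had limits of 0.05 on the adjusted p and of 0.5 on the size of the log2 difference, and a miRNA was called from 1 probe or more with none the other way. Fold bounds compare the bright group's mean with the higher of the dim probe and the lowest well-detected signal of each array. Gene signals are background-subtracted sums per miRNA, with negative values set to 0. Within-array differences were tested by exact permutation in scipy 1.17.1. The limma fit and the calling of probes were tested on simulated data.

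The text names the 8 members, 2 further star strands and the 5 miRNAs most correlated with the major strands. Values are those of the brightest probe unless stated. The members and lists were chosen with earlier results of these data known. The number of arrays limits the precision. Alternatives covered signal, normalization, filter, limits, test, probe rule, array weights, a replicate block and leaving out each array.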

Additional observations from a re-analysis of the deposited data

Results flagged for a closer look

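The effect of Dicer loss differed between P4 and E17 for 3 members by the test of the difference itself, with log2 values of -1.12 for miR-30a, -0.68 for miR-30c and -0.66 for miR-30a*. Among 40 groups of 4 arrays, 10 miR-30 strands in 4 groups each, 1 array stood far from the others in 2, and chance flags about 1 in 20. Both concern miR-30c-1*, with E17 control replicate 1 at 6.20 against 6.03 to 6.04 on the other arrays (gap over range 0.930) and E17 mutant replicate 2 at 6.07 against 5.96 to 5.98 (gap over range 0.853).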

How the results depend on the processing

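No alternative turned the direction of a called member. The 4 members called lower at P4 became 7 with background-subtracted mean signal, without normalization and without a limit in size, and 1 (miR-30a) with a limit of 1. The 4 called higher with age in controls became 8 under each of those same first 3 settings, 2 with normexp on the median signal, 2 over the mean of a miRNA's probes and 0 with the limit of 1. The 3 called in the difference between ages became 8 without normalization, 5 with cyclic loess, 6 without a limit and 1 with the limit of 1. The 0 members called with age in mutants became 1 with background-subtracted signal and 1 without normalization, and the 0 lower at E17 became 1 without a limit. The methods' t-test called 4 members lower at P4 and 4 higher with age in controls, both without adjustment and with it, and 0 at E17 and with age in mutants. Leaving out each array in turn gave 4 to 5 members lower at P4, 0 at E17, 4 higher with age in controls, 0 in mutants and 3 to 4 in the difference between ages.

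Values not called that changed sign were the following. Without normalization, at E17, miR-30b was 0.053, miR-30a* 0.073, miR-30c-2* 0.23 and miR-30e* 0.19, and with age in mutants miR-30a was 0.26. With scaling to the 75th percentile over probes that all arrays detected, at P4, miR-30e was 0.061, miR-30c-2* 0.18 and miR-30e* 0.098, at E17 miR-30b was 0.064, miR-30a* 0.084, miR-30c-2* 0.24 and miR-30e* 0.20, with age in controls miR-30c-2* was -0.34 and miR-30e* -0.23, and with age in mutants miR-30b was -0.11, miR-30d -0.099, miR-30e -0.10, miR-30c-2* -0.40 and miR-30e* -0.34. With cyclic loess, with age in mutants, miR-30b was -0.048, miR-30d -0.063 and miR-30e -0.022, and with background-subtracted signal miR-30c was -0.030. The within-array changes at P4 became 0.19 for miR-30a minus miR-30a* and 0.37 for miR-30c minus miR-30c-2* with background-subtracted, unnormalized signal, -0.037 for miR-30e minus miR-30e* without normalization, and 0.083 for miR-30b minus miR-30d over the mean of probes. Leaving out 1 array gave -0.086 to 0.039 for miR-30a at E17, -0.089 to 0.055 for miR-30e at P4 and -0.066 to 0.096 for miR-30c with age in mutants. The cause of these shifts was not tested. Unnormalized arrays and the percentile scaling brought the median of all probes with age in controls to 0.42 and -0.64. Over all probes, the 54 lower and 45 higher calls at P4 became 132 and 136 with background-subtracted signal, 156 and 1 without normalization, 64 and 400 with the percentile, 37 and 24 with normexp, and 14 and 7 with the limit of 1.

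With 1 array left out, an exact test of 3 against 4 arrays cannot go below p = 0.0571. The study describes littermate pairs of mutants and controls at each age, but the labels do not tie replicate numbers to litters. Same-numbered arrays of an age correlated in their deviations from the group means at -0.52 to 0.090 at E17 and -0.28 to 0.46 at P4. The numbers were not taken as pairs, so the main tests leave out any pairing of littermates. These correlations cannot show that the animals were unpaired. With the replicate number as a block, 4 members were called lower at P4, 0 at E17 and 3 in the difference between ages, as without the block, and the age comparisons could not be fitted with it. The planned normexp correction on mean signals was not run, and normexp on the median signals was added after seeing the data. Probes near the array's floor, which include miR-30c-2* and the dimmer probes of miR-30b and miR-30a*, limit what can be seen of the passenger strands.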
